A study of Mus musculus with 2 samples.

Results

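The cytokines of the interleukin-6 (IL-6) family and the receptor chains that work with gp130 were described in colon RNA of mice treated with dextran sulfate sodium (DSS), which damages the lining of the colon and sets off colitis. Of 10 members looked for by gene symbol, 9 had probe sets on the array, among 18193 genes in all. These were the ligand genes Il6, Il11, Lif, Osm and Clcf1 and the receptor genes Il6ra, Il6st, Lifr and Osmr, with 20 probe sets in total. Il11ra1 is not analysed here, since no probe set carried its symbol alone. The 2 groups were Hif-2αΔIE, with 1 array, and Hif-2αF/F, with 1 array. Hif-2α is the hypoxia-inducible factor subunit encoded by Epas1. F/F denotes conditional alleles of that gene, and ΔIE is read here, from knowledge of the model and not from the labels, as their deletion in the intestinal epithelium. What drives Cre is not stated there. Both groups were C57BL/6 mice of 6 to 8 weeks (7 weeks in the design text) that received 3% DSS for 3 days, and neither was left without DSS. RNA came from mucosal scrapings of the colon, so it holds epithelium together with leukocytes and stroma. The design text counts 5 ΔIE and 6 F/F mice, and pooling of their RNA is not stated. With 1 array per genotype there is no replicate check, standard error or p-value, and every difference below compares these 2 arrays.

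Most cytokines of this family signal through gp130, the shared chain encoded by Il6st, an exception being IL-31, which uses the chains encoded by Il31ra and Osmr. IL-6 first binds its own receptor chain (Il6ra), on the cell surface or in a shed soluble form. IL-11 binds a related chain, while leukaemia inhibitory factor (Lif) and oncostatin M (Osm) pair gp130 with the signalling chains encoded by Lifr and Osmr. Kinases of the JAK family bound to these chains activate STAT3, and SOCS3, itself a STAT3 target, binds gp130 and ends the signal. In the colon IL-6 and IL-11 are known for epithelial survival and regrowth after injury, and oncostatin M for acting on stromal cells.

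Promoters of 4 members are shown, chosen by the differences below or by a pattern match. Il6 and Osmr were at least 2-fold lower on the ΔIE array, Lif had the smallest difference, and Il6ra was the member whose window held ACGTG. The sequences are the 250 bases before the start site in RefSeq's annotation of GRCm38.p6, 5′ to 3′ on the gene's strand. Capitals mark matches, on either strand, to ACGTG, a form of the core bound by hypoxia-inducible factors. Other forms of that core, such as GCGTG, were not searched. Capitals also mark GGG and CC with any 5 bases between them (a loose NF-kB pattern), TGANTCA (AP-1) and TTCNNNGAA (STAT). The last pattern marked is TTNNGCAA, a loose C/EBP pattern added after the sequences were seen.
Il6, chr5:30012864-30013113, plus strand: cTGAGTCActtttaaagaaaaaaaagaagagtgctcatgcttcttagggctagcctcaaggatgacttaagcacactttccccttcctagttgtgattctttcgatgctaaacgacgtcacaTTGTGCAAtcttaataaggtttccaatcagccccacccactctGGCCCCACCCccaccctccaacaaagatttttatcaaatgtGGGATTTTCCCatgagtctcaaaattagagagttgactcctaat
Osmr, chr15:6874314-6874563, minus strand: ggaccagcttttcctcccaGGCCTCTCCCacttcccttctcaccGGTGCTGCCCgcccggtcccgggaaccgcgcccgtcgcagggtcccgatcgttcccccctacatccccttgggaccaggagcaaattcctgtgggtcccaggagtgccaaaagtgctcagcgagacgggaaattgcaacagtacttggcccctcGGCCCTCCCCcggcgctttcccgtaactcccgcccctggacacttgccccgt
Lif, chr11:4257318-4257567, plus strand: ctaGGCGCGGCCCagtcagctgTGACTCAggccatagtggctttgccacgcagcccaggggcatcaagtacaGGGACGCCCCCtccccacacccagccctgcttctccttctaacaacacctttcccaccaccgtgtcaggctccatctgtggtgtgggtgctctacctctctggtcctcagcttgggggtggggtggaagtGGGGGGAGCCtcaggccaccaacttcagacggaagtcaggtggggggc
Il6ra, chr3:89913197-89913446, minus strand: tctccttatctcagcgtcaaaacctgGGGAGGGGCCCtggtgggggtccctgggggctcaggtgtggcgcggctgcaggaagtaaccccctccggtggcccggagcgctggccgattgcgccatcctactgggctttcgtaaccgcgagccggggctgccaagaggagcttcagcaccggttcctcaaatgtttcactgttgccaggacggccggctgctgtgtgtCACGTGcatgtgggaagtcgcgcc
In the Il6 window the pattern TGANTCA began 249 bases before the start site, TTNNGCAA 128 bases before it, and the NF-kB pattern matched at 85, 44 and 43 bases, the last 2 of these overlapping. The Osmr window held 3 matches to the NF-kB pattern and no other match. In Lif, TGANTCA lay 228 bases before the start site, beside 4 matches to the NF-kB pattern, 2 of them overlapping. In Il6ra the palindrome CACGTG, which reads as ACGTG on both strands, began 24 bases before the start site, and the 2 overlapping NF-kB matches 224 and 223 bases before it. Among 32841 promoter windows of the same length in the table, 16.6% held ACGTG, 45.8% the NF-kB pattern, 6.75% TGANTCA, 7.02% TTCNNNGAA and 9.57% TTNNGCAA. The 2 other C/EBP patterns searched were TTGCGCAA, found in 0.164% of windows, and TTNCGNAA, found in 2.04%. The second of these matched once among the members, in Il6ra, 116 bases before the start site, and it is not capitalised above, while TTGCGCAA and the STAT pattern matched in 0 of the members' windows. For 8 of the 10 members the table held 11 windows, Il11, Lifr and Il11ra1 having 2 each. Osm and Clcf1 had none. A match to these letters is a description of the sequence and not evidence of binding.

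Every member measured was lower on the ΔIE array, and 3 of the 9 were at least 2-fold lower. These were Il6, Osm and Osmr, so the oncostatin M ligand and a receptor chain for it were both among them. Il6 reached the level kept on the F/F array alone, and of the 7 members that reached it on both arrays 2, Osm and Osmr, were at least 2-fold lower, with differences from -1.48 to -0.15. Levels are on the log2 scale, as summarised by robust multi-array averaging (RMA), differences are ΔIE minus F/F, and a gene is represented by its brightest probe set. Genes were kept if at least 1 of the arrays reached 6.11, the midpoint of all probe sets. Of 11899 genes kept, 5.30% were at least 2-fold lower, 1.15% at least 2-fold higher and 46.5% below 0 by any amount, and their median difference was 0.019. Among the 4387 of them with a mean level below 8, where 6 of the 8 members kept lie, 7.75% were at least 2-fold lower. Among the 11280 genes that reached the level kept on both arrays, 4.28% were. The 4 ligands kept, with Il6 among them, had a median of -1.03, and the 4 receptor chains a median of -0.81. Over all 5 ligands the median was -0.94, which is the value of Clcf1, under the level kept. The ligands at that level on both arrays, Osm, Il11 and Lif, differed by -1.27, -0.79 and -0.15. At a limit of 1.5-fold 8 of the 9 members were lower, against 10.6% of genes kept, and these 8 include Il6 and Clcf1, which lack a value at the level kept on the ΔIE array. Past 3-fold, where 1.49% of genes kept lay, there was Il6 alone, by that faint value. No member was 2-fold higher.

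**Figure D1:**
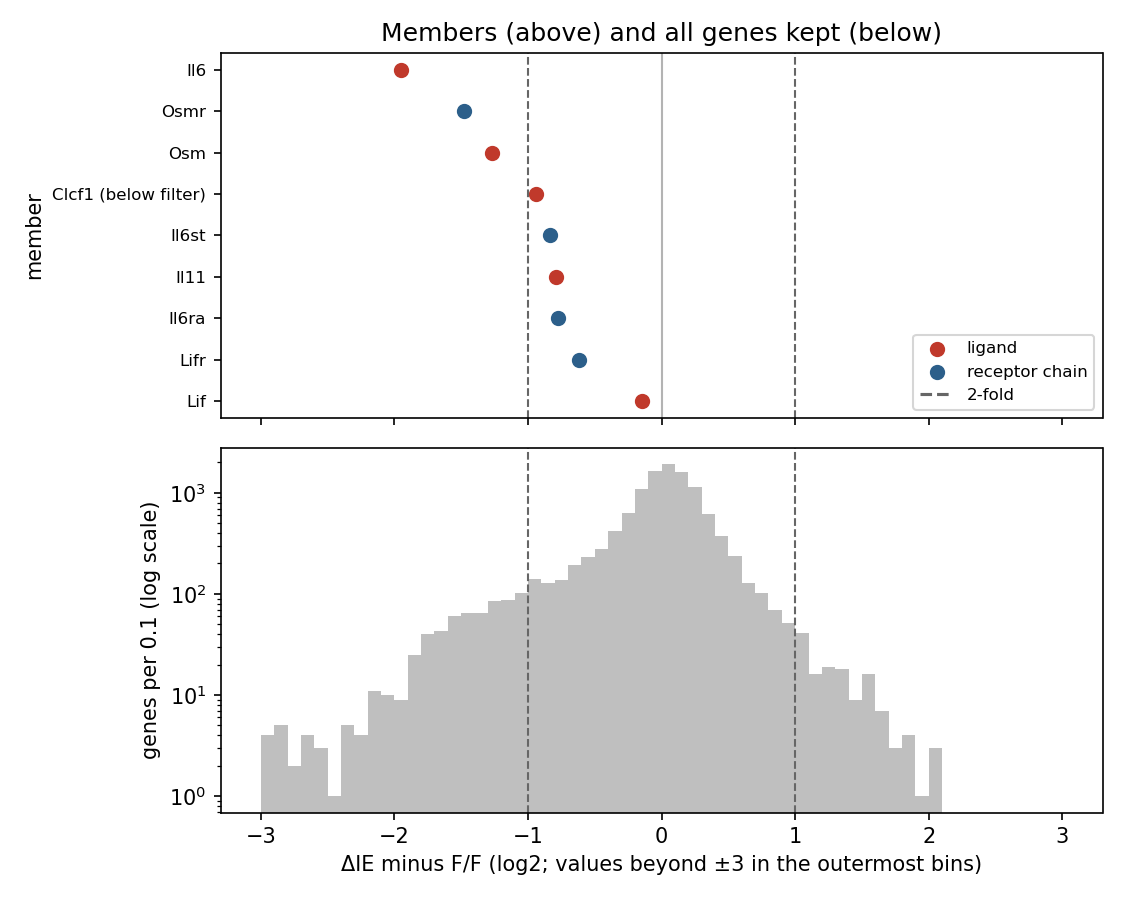
The upper panel gives the ΔIE minus F/F difference (log2) of each member measured, by its brightest probe set, and the lower panel the number of genes kept at each difference on a log scale. All 9 members lie below 0, from -1.95 for Il6 to -0.15 for Lif, while the genes kept centre on 0.019.

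Among the ligands, Il6, the founding cytokine of the family, had the largest difference. It read 5.05 on the ΔIE array and 7.00 on the F/F array, a difference of -1.95. Its ΔIE value lies below the level kept, so no fold or rank is given and the size of the difference is uncertain. Osm, a product mainly of myeloid cells and T cells, read 6.55 on the ΔIE array and 7.82 on the F/F array, 2.41-fold lower. A difference as low as that of Osm or lower was found for 3.18% of genes kept. Each of these ligands rests on a single probe set.

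The other ligands differed by less than 2-fold. Il11, a cytokine made largely by stromal cells, read 6.16 on the ΔIE array and 6.95 on the F/F array, 1.73-fold lower. Lif, known for stem cell maintenance and also made by activated stromal and immune cells, read 6.45 on the ΔIE array and 6.59 on the F/F array by its brighter probe set, a difference of -0.15. Its dimmer probe set read 4.16 on the ΔIE array and 4.34 on the F/F array, a difference of -0.18. Lif was thus the member closest to the median of all genes, and 28.0% of genes kept had a difference as low or lower. Clcf1 encodes a cytokine that is secreted with a soluble receptor partner and acts on a receptor complex that includes gp130 and the Lif receptor chain. All 3 of its probe sets lay under the level kept on both arrays. The brightest read 4.96 on the ΔIE array and 5.90 on the F/F array, a difference of -0.94. Another read 3.94 on the ΔIE array and 4.85 on the F/F array, a difference of -0.91, and the third 4.94 on the ΔIE array and 5.16 on the F/F array, a difference of -0.22.

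**Figure D2:**
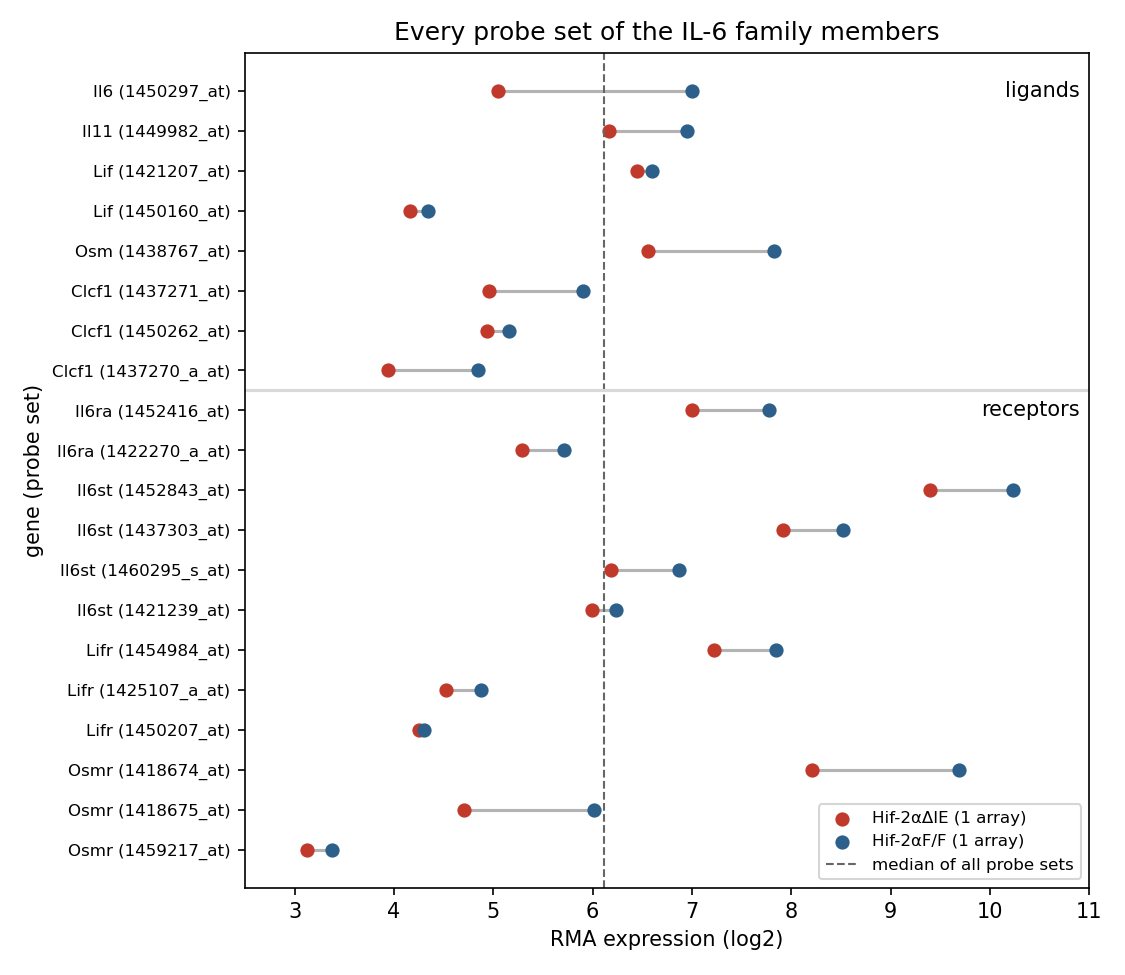
Each row is 1 probe set, with its RMA level (log2) on the ΔIE array in red and on the F/F array in blue, and the dashed line marks the median of all probe sets, 6.11. In all 20 rows the ΔIE point lies to the left of the F/F point, most widely for Il6, and rows must not be compared with each other for level.

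Among the receptor chains, Osmr, a signalling chain for oncostatin M and for IL-31, had the largest difference. Its brightest probe set read 8.20 on the ΔIE array and 9.68 on the F/F array, 2.79-fold lower, and 2.03% of genes kept had a difference as low or lower. A second probe set, under the level kept on both arrays, read 4.70 on the ΔIE array and 6.01 on the F/F array, a difference of -1.31. The faintest, at 3.13 on the ΔIE array and 3.37 on the F/F array, differed by -0.24. Averaged over its 3 probe sets, Osmr differed by -1.01.

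The shared chain gp130 was lower by less. The brightest Il6st probe set read 9.40 on the ΔIE array and 10.24 on the F/F array, 1.78-fold lower. Its 3 other probe sets reached the level kept on at least 1 array and differed by -0.60, -0.69 and -0.25. Il6st is the member with the most probe sets, and averaged over all 4 it differed by -0.59.

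Il6ra and Lifr showed differences of similar size. Il6ra, the chain that gives a cell its sensitivity to IL-6, read 7.00 on the ΔIE array and 7.78 on the F/F array, 1.72-fold lower, and its dimmer probe set read 5.29 on the ΔIE array and 5.71 on the F/F array, a difference of -0.42. Lifr, the signalling chain for LIF, read 7.22 on the ΔIE array and 7.84 on the F/F array, 1.54-fold lower. Its dimmer probe sets, at 4.52 and 4.25 on the ΔIE array against 4.87 and 4.30 on the F/F array, differed by -0.35 and -0.053. RMA compresses differences at faint levels, and whether it did so for these probe sets was not tested.

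Over all 20 probe sets of the 9 genes, 20 were below 0 and 4 were at least 2-fold lower. Of the 45037 probe sets other than controls, 40.7% were below 0 and 2.46% at least 2-fold lower. Probe sets of 1 gene measure the same RNA and are not independent. Among the 6 members with more than 1 probe set, the brightest had the largest drop in 5, the exception being Lif. For 5110 genes with at least 2 probe sets at the level kept, the 2 brightest differed from each other by a median of 0.10, and by at most 0.41 in 95% of genes. The gap between Il6 and Lif is not set against these values, since the ΔIE value of Il6 lies below the level kept. The differences of Il11, Il6ra, Il6st and Lifr all lie between -0.83 and -0.62. By that measure, the gaps among them stay within the 0.41 that covers 95% of genes, though the widest of them exceeds the median of 0.10. The variation between mice cannot be read from it.

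The members include 2 pairs of neighbouring genes. In GRCm38.p6, Osm and Lif lie on chromosome 11 and Osmr and Lifr on chromosome 15, with 0 protein-coding genes between the members of either pair. Within each pair the oncostatin M gene had the larger difference, -1.27 for Osm beside -0.15 for Lif and -1.48 for Osmr beside -0.62 for Lifr.

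Of the rest of the family, 6 genes had probe sets. Ebi3, the subunit that joins IL-27, read 6.28 on the ΔIE array and 7.27 on the F/F array, 1.99-fold lower. Ctf1, the gene of cardiotrophin-1, read 7.39 on the ΔIE array and 7.05 on the F/F array, 1.27-fold higher. Il27ra, the IL-27 receptor chain, read 5.76 on the ΔIE array and 6.43 on the F/F array. The ligand gene Il31 and the receptor genes Il31ra and Cntfr lay under the level kept on both arrays.

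The kinases and adaptors that carry the gp130 signal differed little. Of 12 such genes kept, 10 were below 0 and 2 above, 0 were 2-fold in either direction, and the median was -0.11. The gp130-bound kinase genes Jak1, Jak2 and Tyk2 differed by -0.34, -0.14 and -0.079, and Stat3, the main transcription factor of the pathway, by -0.30. Gab1, an adaptor towards MAP kinase signalling, differed by 0.23, Stat5b by -0.27 and Shc1 by -0.15. The proteases and cofactors that shed cell surface proteins were also under 2-fold. Adam17, the enzyme that releases soluble IL-6 receptor, read 9.02 on the ΔIE array and 9.57 on the F/F array, with differences of -0.55, -0.47 and -0.42 over its 3 probe sets. Adam10 differed by -0.38, Rhbdf2 by -0.29 and Rhbdf1 by 0.073.

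Of 9 negative regulators, 6 were below 0 and 3 above, with a median of -0.27, and Socs3 was the one at least 2-fold lower. Socs3 read 9.10 on the ΔIE array and 10.27 on the F/F array, 2.26-fold lower, and its 3 probe sets ranged from -1.18 to -1.09. The phosphatase genes Ptpn1, Ptpn6 and Ptpn2 differed by -0.60, -0.44 and -0.27. Socs1, the feedback inhibitor related to SOCS3, differed by -0.49, while Socs2 differed by 0.36.

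Genes known to respond to IL-6 or STAT3 were mostly lower. Of 26 genes kept, 22 were below 0, 10 at least 2-fold lower and 1 at least 2-fold higher, with a median of -0.87. The acute phase genes Saa3 and Hp were 3.04-fold and 2.81-fold lower, Lcn2, which encodes a siderophore-binding protein, 2.86-fold, and Il1rn, the IL-1 receptor antagonist, 2.85-fold. Muc1, a membrane mucin, read 7.07 on the ΔIE array and 8.61 on the F/F array, 2.91-fold lower. Reg3g, an antimicrobial lectin of the epithelium, went the other way and was 3.05-fold higher. Reg3b, Fgl2 and Ccnd1 were also above 0, at 0.76, 0.63 and 0.32. Myc, Fos, Bcl2l1 and Birc5 differed little, by -0.13, -0.11, -0.084 and -0.031. Many of these genes also respond to other signals or are made by leukocytes. Of 5 hepatocyte markers measured, Alb, Apoa1 and Ahsg lay under the level kept on both arrays. Ttr, the gene of transthyretin, was 3.16-fold lower, a difference of -1.66, and Apoh read 6.11 on the ΔIE array and 5.46 on the F/F array.

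Signals known to induce IL-6 family cytokines were lower on the same arrays. Of 8 genes listed 6 were kept, 6 were below 0 and 3 at least 2-fold lower, with a median of -0.97. Il1b was 4.32-fold lower, the cytokine gene Il17a 2.93-fold and Ptgs2, the inducible cyclooxygenase, 2.03-fold. Tgfb1, Tnf and Nfkbiz differed by -0.92, -0.72 and -0.29.

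**Figure D3:**
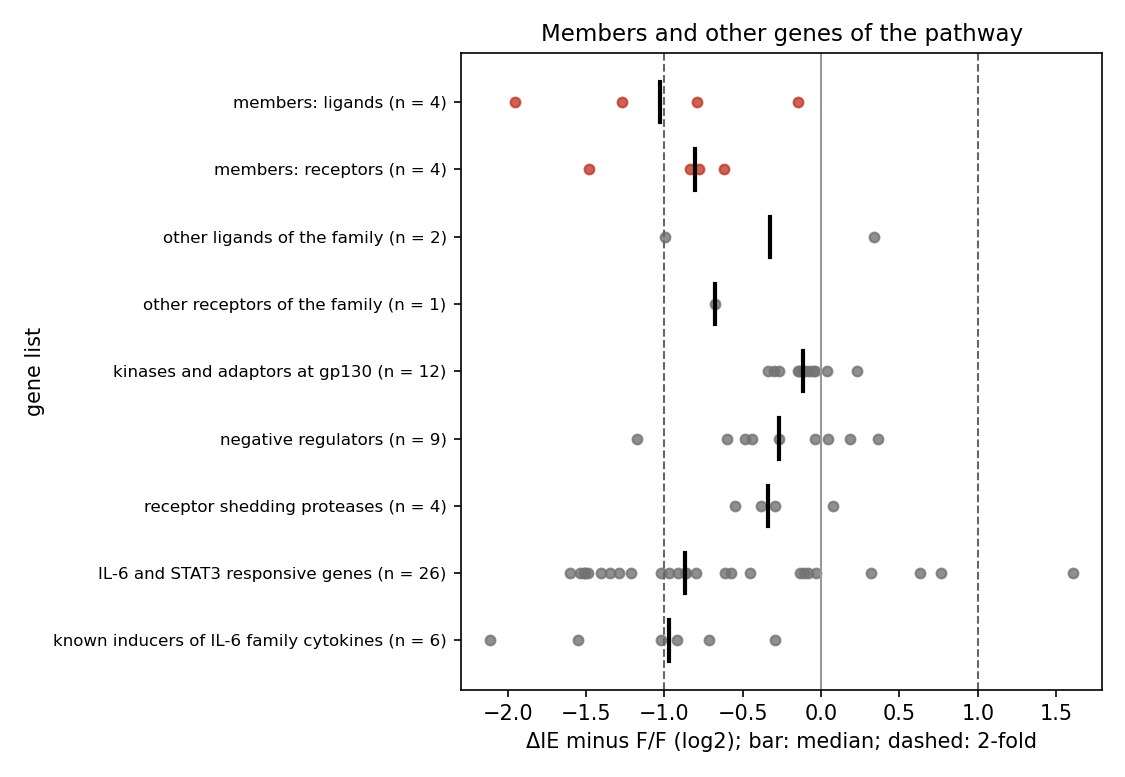
Each point is the ΔIE minus F/F difference (log2) of 1 gene kept, by list, with a bar at the list's median and dashed lines at 2-fold. The kinases and adaptors lie between -0.34 and 0.23, near 0, while the members, the responsive genes (median -0.87) and the inducers (median -0.97) lie mostly to the left, with Reg3g alone past 2-fold on the right.

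Markers of the cells that make these cytokines or carry their receptors differed as well, and their part in the members' differences was not tested. Of 12 neutrophil markers listed, 11 were measured and kept, 11 were lower and 9 at least 2-fold lower, from -1.87 (Camp) to -0.66. Their summed linear level was 27866 on the ΔIE array and 53761 on the F/F array, and Itgam was under the level kept on the ΔIE array, at 5.89 against 7.37 on the F/F array. Such sums weigh the brightest markers most, here S100a8, S100a9 and Ltf, which differed least, by -0.66, -0.80 and -1.18. Of 12 macrophage and monocyte markers, 11 were measured and kept, 11 were lower and 8 at least 2-fold lower, from -1.61 (Clec7a) to -0.64, with sums of 8115 on the ΔIE array and 17898 on the F/F array. Of 12 fibroblast markers, 11 were measured and kept, 10 were lower and 3 at least 2-fold lower, from -1.19 (Thy1) to 0.41, with sums of 22562 on the ΔIE array and 38453 on the F/F array. In such bulk RNA, fewer cells of a type and less RNA per cell cannot be told apart.

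Endothelial markers had a median of -0.53 with 10 of 10 below 0, and T cell markers a median of -0.37 over 4 genes kept. B cell markers had a median of -1.73 with 7 of 7 below 0. The endothelial gene Tie1 and the B cell genes Cr2, Pax5 and Blk reached the level kept on the F/F array alone, so they could only lie below 0. Smooth muscle markers had a median of 0.025 and colon epithelium markers a median of 0.15, with 9 of 14 above 0. Of these Cdx2, a homeobox factor of the intestine, was 2.03-fold higher, and Cdx1 and Krt20 differed by 0.42 and 0.30. Markers of tissues beside the mucosa and of position along the gut also differed. Squamous epithelium markers had a median of -1.19 over 10 genes kept. Over 7 genes kept each, the medians were -1.49 for posterior Hox genes, 0.90 for adipose markers and 1.28 for skeletal muscle markers. The squamous gene Krt1 and the Hox genes Hoxa10, Hoxa13 and Hoxd11 reached the level kept on the F/F array alone, and Hoxd11 sets the Hox median. Lor among the squamous markers and the skeletal muscle genes Tnnt3 and Atp2a1 reached it on the ΔIE array alone. The filter thus fixed the sign of these genes. Mast cell and hepatocyte markers had 2 genes kept each, with 1 above and 1 below 0 in both lists. The genotype, the position of the scraping and the cell makeup cannot be told apart with 1 array per group.

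**Figure D4:**
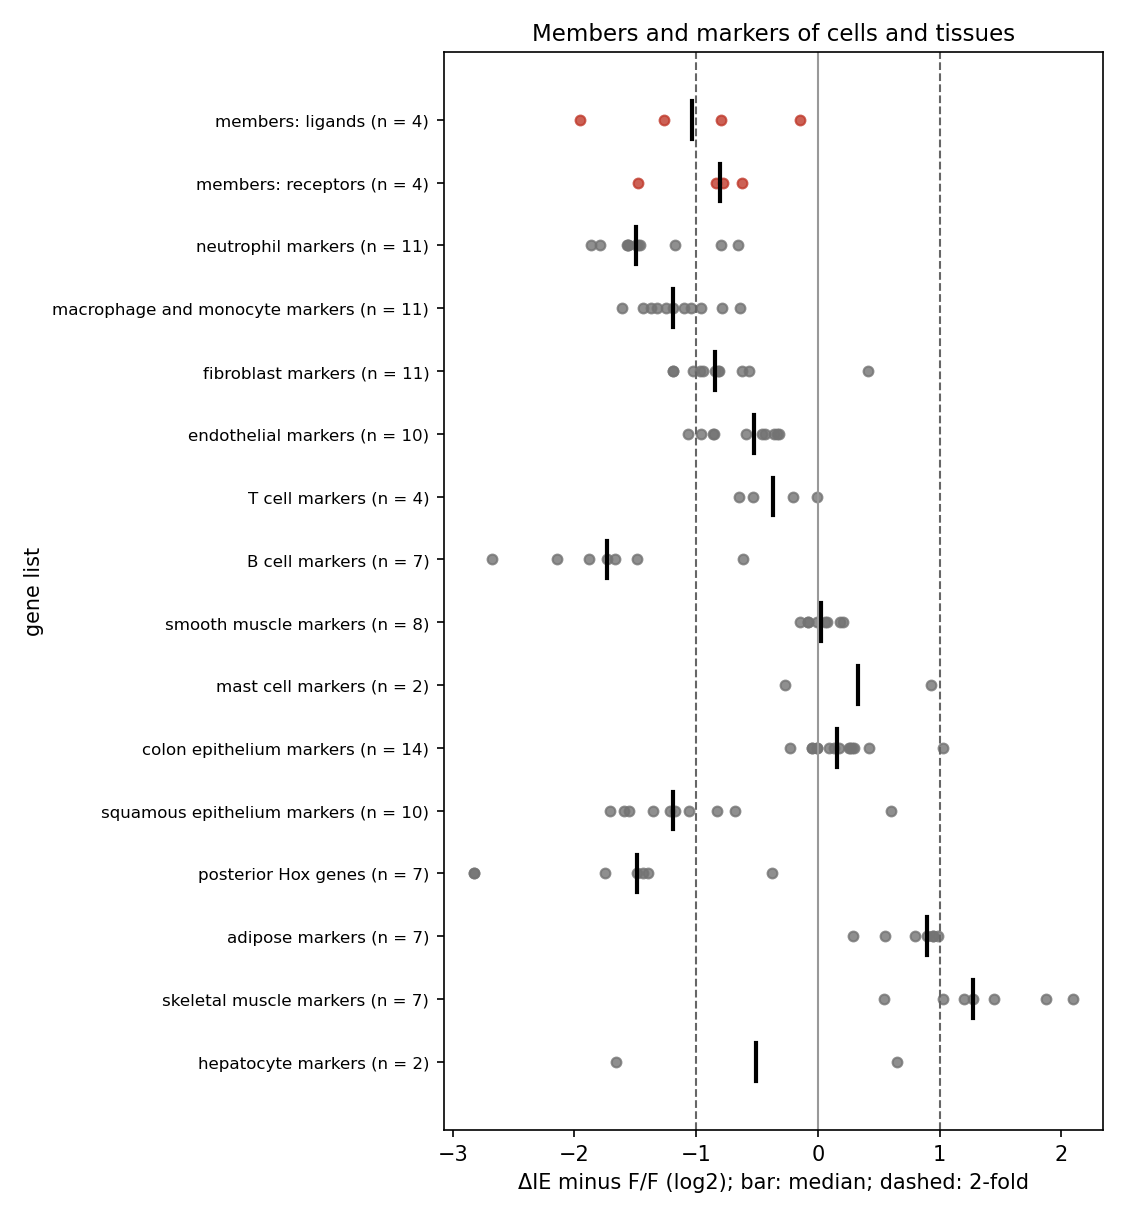
Each point is the ΔIE minus F/F difference (log2) of 1 gene kept, for the members and for 14 marker lists, with a bar at each median and dashed lines at 2-fold. Neutrophil (median -1.49), macrophage (-1.19) and fibroblast (-0.85) markers lie to the left together with the members. So do B cell markers (-1.73), posterior Hox genes (-1.49) and squamous epithelium markers (-1.19). Smooth muscle (0.025) and colon epithelium (0.15) markers lie near 0, and adipose (0.90) and skeletal muscle (1.28) markers to the right. Genes at the level kept on 1 array alone, among them B cell, Hox, squamous and skeletal muscle markers, could lie on 1 side only.

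As a check of the labels, the 4 control probe sets for Cre recombinase read 7.86 to 10.01 on the ΔIE array and 2.92 to 4.22 on the F/F array. The 41 other bacterial control probe sets had medians of 3.14 on the ΔIE array and 3.11 on the F/F array. Their highest readings were 7.49 and 7.26. Whether the Cre signal came from a transgene or from added control RNA was not tested. Epas1 read 11.77 on the ΔIE array and 11.90 on the F/F array by its brighter probe set, and 7.15 on the ΔIE array and 6.98 on the F/F array by the other. Where these probe sets lie relative to the deleted part was not determined, so they do not check the deletion.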

How the data were processed

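Colon mucosal RNA of 1 Hif-2αΔIE and 1 Hif-2αF/F sample, assigned by the genotype label, was measured on arrays of 45101 probe sets. The deposited values are log2 expression made with affy and RMA (background correction, quantile normalization, probe set summary), per the submitters' processing notes. Versions, and which arrays were normalized together, are not stated. The columns' medians were 6.11 (ΔIE) and 6.12 (F/F). RMA gives no detection call, compresses faint differences, and its quantile step hides any global change. The number of arrays limits the precision.

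Symbols came from a platform annotation paired with the file: 34958 probe sets had 1 symbol, 932 several and 9211 none. The 64 control probe sets were set aside. A gene took its probe set with the highest mean, and its fold was printed where both arrays reached the filter. No test between genotypes was run. Members and lists were chosen with earlier results of these data known. Members are named in full, and of other lists up to 6 pathway genes or 3 markers by largest difference, plus genes of receptor signalling. Pathway genes beyond these and the split of level at 8 were chosen after values were seen. The counting step was checked on simulated arrays with known changes, whose outcome supports no value here. Alternatives were probe set averaging, leaving out _s_at and _x_at probe sets, other filters, median centring, lowess (span 0.3), other thresholds and agreement of all probe sets. A value was taken to have moved past 0.41, a limit set after the data were seen. Python 3.11.15, numpy 2.4.6, pandas 2.3.3, statsmodels 0.14.6 and matplotlib 3.10.9 were used.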

Additional observations from a re-analysis of the deposited data

How the results depend on the processing

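Averaging probe sets, leaving out _s_at and _x_at probe sets, median centring and lowess correction left every member measured below 0 in all 36 recomputed differences, and 35 of these moved by no more than 0.41. The exception was Osmr, at -1.01 with probe sets averaged. Much of this agreement was fixed beforehand. Leaving out _s_at and _x_at probe sets changed no member's value, and averaging cannot change Il6, Il11 or Osm, with 1 probe set each. With all 20 probe sets below 0, averaging could not turn a sign. The centring shift was -0.016 and the lowess shift 0.019 to 0.071. The number of members at least 2-fold lower was 3 under averaging, without _s_at and _x_at probe sets, under median centring and among members reaching the filter. It was 4 with lowess, which brought Clcf1 to -1.01, and 2 (Il6 and Osm, with 1 probe set each) when every probe set had to pass. At 1.5-fold it was 8 and at 3-fold 1. Genes at least 2-fold lower numbered 631, 487 with probe sets averaged, and 381 with a filter at the 75th percentile, where fewer genes are counted. Averaging also brought Lifr from -0.62 to -0.34, short of 1.5-fold. The median over all 5 ligands went from -0.94 to -0.79 with it, and that over receptors from -0.81 to -0.60. The median over other receptors of the family, 1 gene at -0.68, was -0.059 over 3 genes without a filter. No replicate could be left out and no test made with 1 array per genotype. No paired analysis was possible because each group holds 1 array. Faint probe sets, among them those of Clcf1 and the ΔIE value of Il6, limit the size of these differences.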

Other observations

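Relatives of gp130 outside the family, chosen after values had been seen, went different ways. Csf3, the gene of the granulocyte growth factor G-CSF, read 7.18 on the ΔIE array and 8.55 on the F/F array, a difference of -1.37. Its receptor gene Csf3r, a gp130-like chain that also stands among the neutrophil markers, read 8.08 on the ΔIE array and 9.65 on the F/F array, a difference of -1.57. Lepr, the gp130-like leptin receptor, differed by 0.14 and 0.015 over the 2 probe sets that reached the level kept. The IL-12 receptor genes Il12rb1 and Il12rb2 and the IL-12 family subunit genes Il12a, Il12b and Il23a lay under that level on both arrays.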
